A study of Mus musculus with 15 samples.

Results

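A group of 10 genes of the G1 restriction point was followed in newborn mouse pituitaries of 2 dwarf mutants and a wild type: the D cyclins Ccnd1, Ccnd2 and Ccnd3, the CDK inhibitors Cdkn2c, Cdkn1a, Cdkn1b and Cdkn1c, and the pocket proteins Rb1, Rbl1 and Rbl2. They were taken by gene symbol from the array annotation, with every probe set of each, and make up 10 of 18193 genes and 27 of 45037 probe sets measured. RNA of whole pituitaries from pups of postnatal day 1 was pooled by genotype and put on Affymetrix mouse whole-genome arrays, 1 array for each of 15 pools. Prop1df/df, on the DF/B background, is one dwarf mutant. Pit1dw/dw, on the DW/J background, is the Snell dwarf, with a point mutation in the POU domain factor Pit1 (gene Pou1f1), needed for growth hormone, prolactin and thyrotropin cells. Pit1+/+, also DW/J, is the wild type. Each group had 5 pools and all mice ate high fat chow; how many pups and of which sex went into a pool is not stated in the labels, so p-values cover only the spread between these pools. Strain and genotype cannot be told apart where Prop1df/df is set against either DW/J group. Wild-type pools on the DF/B background were not analysed here.

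D cyclins bind Cdk4 and Cdk6 and phosphorylate the pocket proteins, which otherwise hold E2F factors and keep genes of S phase off. Cdkn2c (p18) blocks the cyclin D kinases, while Cdkn1a (p21), Cdkn1b (p27) and Cdkn1c (p57) bind cyclin and kinase together and act on cyclin E and cyclin A kinases as well. In mice, loss of Rb1, Cdkn1b or Cdkn2c leads to tumours of the pituitary intermediate lobe, and Cdkn1c is known for the exit of pituitary progenitors from the cell cycle.

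Several pools stood apart. Growth hormone (Gh) was 13.58, 14.07, 14.03, 8.99 and 10.24 (log2 RMA signal) in Prop1df/df pools 1 to 5, so that 3 of the 5 came close to Pit1+/+, where Gh was 14.15 to 14.28. In Pit1dw/dw Gh was 7.15 to 10.31. Prph, a gene of peripheral sensory neurons, was above 7 in 5 pools (Prop1df/df pools 3 and 4, Pit1dw/dw pools 2 and 3, Pit1+/+ pool 3) and at 4.96 or less in the other 10. Pit1+/+ pool 1 has a genotype entry of Prop1df/df that goes against its title, source and strain; on a scale with the other Pit1+/+ pools at 0 and Prop1df/df at 1, its median position was 0.0300 over 446 genes that separate those groups. Pomc, the hormone gene of corticotrophs and melanotrophs, was 13.19 to 14.17 in all 15 pools. The mutated genes were not analysed here. Array medians were 4.31 to 4.43, and precision is limited by the number of arrays. In whole-gland RNA, fewer cells of a type and less RNA per cell cannot be told apart.

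At the level of genes no change in this group passed the test, and the genotypes overlapped for each gene. With 1 probe set per gene (the one with the highest mean), 0 of the 10 genes passed an adjusted p of 0.05 in Prop1df/df against Pit1+/+, where 10.6% of all genes passed. It was 0 of 10 in Pit1dw/dw against Pit1+/+, with 0.77% of all genes past the threshold, and 0 of 10 in Prop1df/df against Pit1dw/dw, with 6.26%. These counts are from limma with Benjamini-Hochberg adjustment over all genes; at an unadjusted p under 0.05 they were 3, 1 and 0, where 24.4%, 8.46% and 20.1% of all genes were under it. In the first comparison 1 or 2 of the 10 passed under 10 of 28 alternatives, namely Rbl1, Cdkn1c or Cdkn2c, and in the others 0 passed under all 28. Over the 10 genes the median log2 change was -0.08, 0.07 and -0.16 in these comparisons, beside -0.04, -0.02 and -0.02 over all genes. The groups overlapped for each of the 10 genes in each comparison, where 8.01%, 2.78% and 8.5% of all genes had groups that did not overlap. The first and second comparisons share the Pit1+/+ pools, and the first and the last share the Prop1df/df pools.

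**Figure D1:**
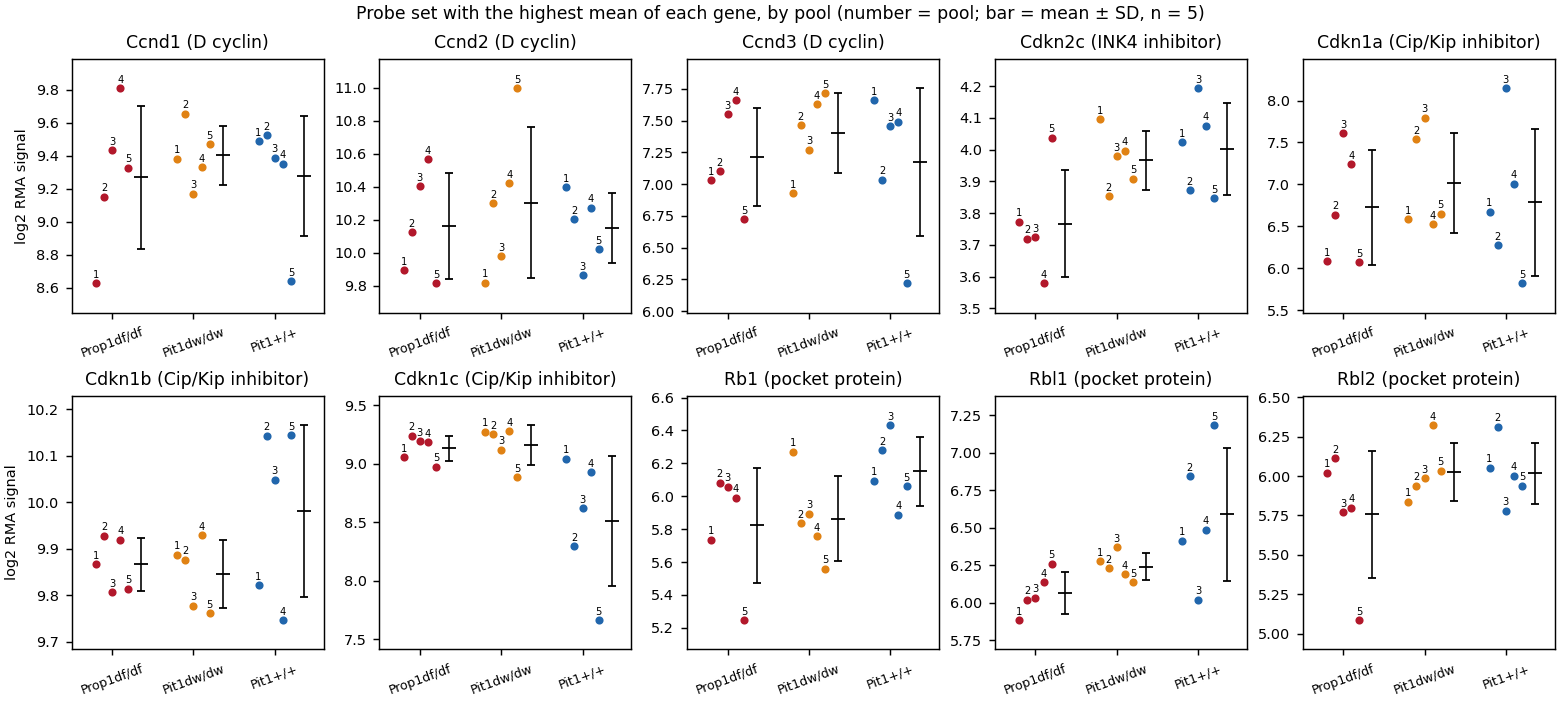
Log2 RMA signal (vertical axis) of the 10 genes in each pool, with Prop1df/df, Pit1dw/dw and Pit1+/+ from left to right in each panel; points are single pools and bars are the mean and SD of 5 pools. The groups overlap in every panel, Cdkn1c is lower in some Pit1+/+ pools (down to 7.66) than in the mutants, and Cdkn1a spreads over 5.82 to 8.15.

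Taken probe set by probe set, 1 of 27 passed in Prop1df/df against Pit1+/+ (7.44% of all probe sets passed), 1 of 27 in Pit1dw/dw against Pit1+/+ (0.371%) and 0 of 27 in Prop1df/df against Pit1dw/dw (5%). At an unadjusted p under 0.05 these counts were 5, 2 and 0, beside 20.8%, 7% and 18.6% of all probe sets. The same probe set, 1424156_at of Rbl1, made both calls, and it was the only one of the 27 whose groups did not overlap, beside 6.31% of all probe sets in the first comparison, 2.14% in the second and 7.19% in the last. Of the 27, 19 had a mean at or above the median of all values on the arrays, 4.37. The other 8, among them the single probe set of Cdkn2c, were dimmer.

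**Figure D2:**
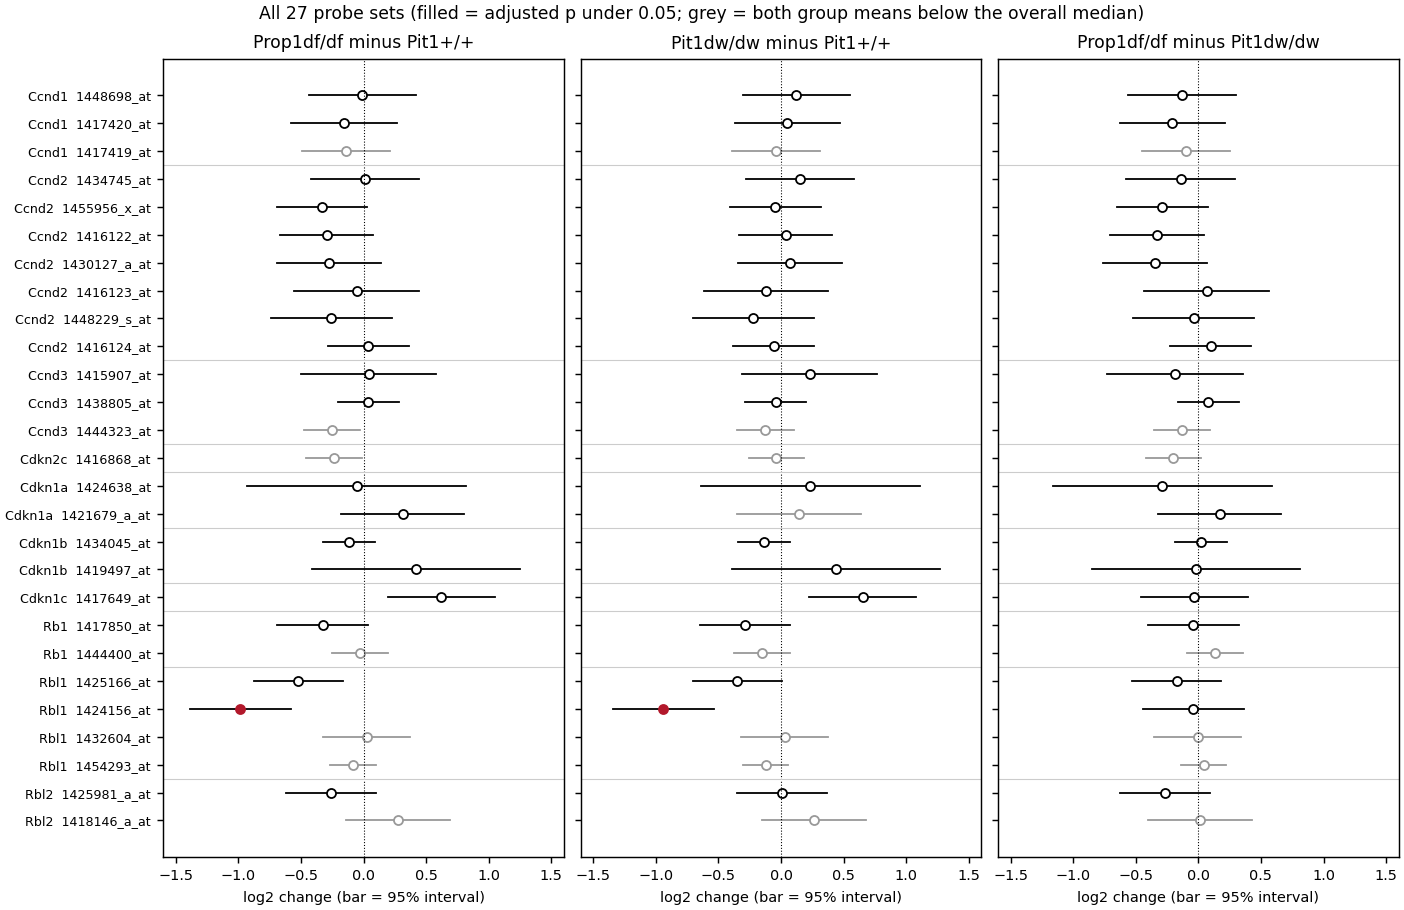
Log2 change of each of the 27 probe sets (points, with 95% confidence intervals) in the 3 comparisons, with Prop1df/df minus Pit1+/+ first. The interval of Rbl1 1424156_at lies between -1.39 and -0.58 in Prop1df/df minus Pit1+/+ and between -1.35 and -0.54 in Pit1dw/dw minus Pit1+/+, and near 0 in Prop1df/df minus Pit1dw/dw.

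Rbl1, which encodes the pocket protein p107, fell in both mutants at 1 of its 4 probe sets. At 1424156_at the 5 Prop1df/df pools had log2 signals of 5.21, 5.72, 5.87, 5.54 and 5.17, the Pit1dw/dw pools 5.70, 5.29, 5.42, 5.90 and 5.44, and the Pit1+/+ pools 6.11, 6.77, 6.17, 6.39 and 7.0. All 10 mutant pools lay below all 5 Pit1+/+ pools, and the mutants overlapped each other. The log2 change was -0.98 (SE 0.19, limma adjusted p = 0.00398) in Prop1df/df minus Pit1+/+, 1.98-fold lower. It was -0.94 (SE 0.19, limma adjusted p = 0.0440) in Pit1dw/dw minus Pit1+/+, 1.92-fold lower, and -0.04 (95% interval -0.45 to 0.36, limma adjusted p = 0.930) in Prop1df/df minus Pit1dw/dw.

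The fall of Rbl1 1424156_at in Prop1df/df passed in each of 27 alternatives, at adjusted p of 0.0477 or less; it was -1.13 (adjusted p = 0.0257) without the 3 Prop1df/df pools with Gh above 13 and -1.08 (adjusted p = 0.00390) without Pit1+/+ pool 1. In Pit1dw/dw its sign held in all 27, with log2 changes of -1.04 to -0.78, but 18 of them ended the call, with an adjusted p of up to 0.422. Among the pools left out in turn these were Prop1df/df pools 2 and 4, Pit1dw/dw pools 1, 2, 3 and 5, and Pit1+/+ pools 2, 4 and 5.

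The other probe sets of Rbl1 moved less. At 1425166_at, the brightest, the Prop1df/df pools had 5.88, 6.02, 6.03, 6.14 and 6.26, the Pit1dw/dw pools 6.28, 6.23, 6.37, 6.19 and 6.14, and the Pit1+/+ pools 6.41, 6.84, 6.02, 6.49 and 7.19. Only Pit1+/+ pool 3 reached down among the mutants, so that both mutant groups overlapped wild type. Its change was -0.52 (SE 0.17) in Prop1df/df and -0.35 (SE 0.17) in Pit1dw/dw against Pit1+/+. The limma adjusted p was 0.0583 and 0.608 over all genes, and 0.0735 and 0.726 over all probe sets. The other Rbl1 probe sets are given with the adjustment over all probe sets. Without Pit1+/+ pool 3, which also had the highest Prph of its group, the change of 1425166_at in Prop1df/df was -0.67 (adjusted p = 0.00903 over all genes). The dim probe sets 1432604_at and 1454293_at changed by 0.02 and -0.08 in Prop1df/df and by 0.03 and -0.12 in Pit1dw/dw, each with an adjusted p of 0.636 or more. The probes of a set read their own stretch of the transcript, and which transcripts of Rbl1 each set reads was not tested.

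**Figure D3:**
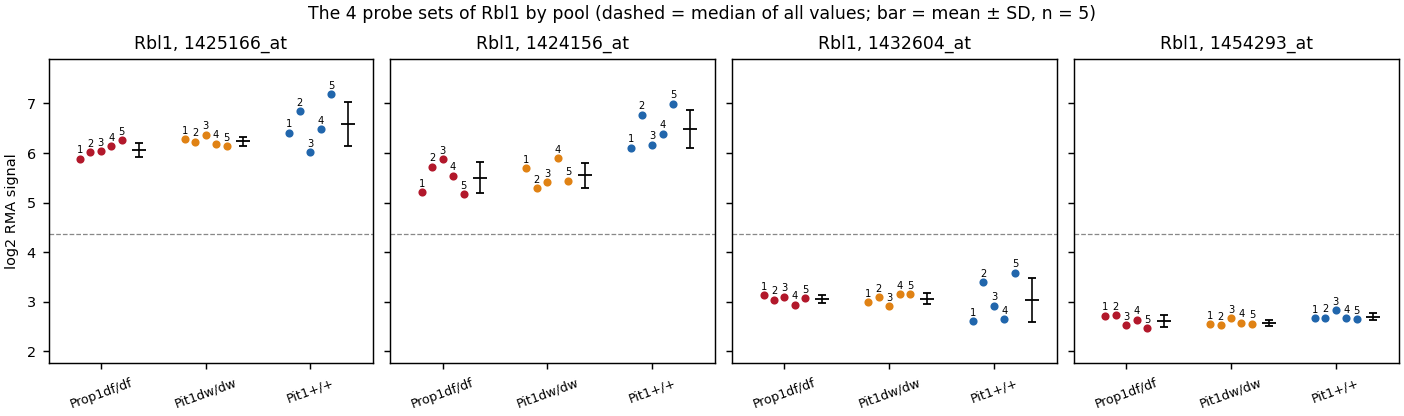
Log2 RMA signal of the 4 probe sets of Rbl1 by pool, with pool numbers above the points; bars are the mean and SD of 5 pools and the dashed line is the median of all values, 4.37. Both bright probe sets are highest in Pit1+/+, with no overlap at 1424156_at and overlap through Pit1+/+ pool 3 at 1425166_at, while both dim ones lie below the line in each genotype.

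Rbl1 is known as a gene that E2F factors bind and that their pocket protein partners hold down, and its promoter is shown because it was the only one searched among these genes that holds the letters of an E2F site. The 250 bases upstream of its RefSeq start (GRCm38.p6, chr2:157204535-157204784, minus strand) are printed 5′ to 3′, with capitals at the match to the E2F motif.
Rbl1: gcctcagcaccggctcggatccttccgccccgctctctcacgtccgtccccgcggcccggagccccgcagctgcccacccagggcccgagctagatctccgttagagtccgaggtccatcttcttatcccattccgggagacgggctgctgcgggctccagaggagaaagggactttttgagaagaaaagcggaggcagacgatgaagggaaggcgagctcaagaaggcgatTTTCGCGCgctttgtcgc
In each promoter the 250 bases upstream of the start were searched on both strands for TTTCGCGC and TTTGGCGC, 2 forms of the E2F site. Overlapping matches were each counted. RefSeq promoters were given for 6 of the 10 genes (Ccnd3, Cdkn2c, Cdkn1a, Cdkn1b, Rbl1 and Rbl2), in 9 windows, and 1 of the 9 held a match, that of Rbl1. Of all 32851 promoter windows of the same 250 upstream bases, 215 (0.654%) held one. Among genes of S phase that E2F drives, 4 of 20 windows (20%) did. A match is a run of letters and was not tested as a bound site.

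Rb1, the retinoblastoma protein, did not pass in any comparison. At 1417850_at its log2 signal was 5.25 to 6.08 in Prop1df/df, 5.56 to 6.27 in Pit1dw/dw and 5.89 to 6.43 in Pit1+/+, and the 3 groups overlapped. The change was -0.33 (SE 0.17, limma adjusted p = 0.255) in Prop1df/df and -0.29 (SE 0.17, limma adjusted p = 0.723) in Pit1dw/dw against Pit1+/+. Its second probe set, 1444400_at, was dim in each pool (2.29 to 2.93). Rbl2, the pocket protein p130 of resting cells, had 5.09 to 6.11 in Prop1df/df, 5.84 to 6.33 in Pit1dw/dw and 5.78 to 6.31 in Pit1+/+. Its change in Prop1df/df was -0.26 against Pit1+/+ (SE 0.17, limma adjusted p = 0.379) and -0.27 against Pit1dw/dw (SE 0.17, limma adjusted p = 0.408). These values are from 1425981_a_at. The dim second probe set, 1418146_a_at, changed by 0.27 in Prop1df/df and 0.26 in Pit1dw/dw against Pit1+/+. Between the mutants it changed by 0.01. Prop1df/df pool 5 had the lowest value of all 15 pools for Rb1 at 1417850_at and for Rbl2 at 1425981_a_at.

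Among the CDK inhibitors, Cdkn1c came nearest to a change at the level of genes. Its log2 signal at 1417649_at, its only probe set, was 9.06, 9.24, 9.19, 9.19 and 8.98 in Prop1df/df pools and 9.28, 9.25, 9.12, 9.28 and 8.88 in Pit1dw/dw pools, against 9.04, 8.29, 8.62, 8.93 and 7.66 in Pit1+/+ pools. The 10 mutant pools lay between 8.88 and 9.28, while the 5 wild-type pools ran from 7.66 to 9.04, with pools 1 and 4 reaching the mutant range. The SD over 5 pools was 0.11 in Prop1df/df, 0.17 in Pit1dw/dw and 0.56 in Pit1+/+. The log2 change was 0.62 (SE 0.20, 95% interval 0.19 to 1.05, limma adjusted p = 0.0622) in Prop1df/df and 0.65 (SE 0.20, 95% interval 0.22 to 1.08, limma adjusted p = 0.248) in Pit1dw/dw against Pit1+/+. It was -0.03 (95% interval -0.46 to 0.40, limma adjusted p = 0.952) in Prop1df/df minus Pit1dw/dw.

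Cdkn1c crossed the threshold in Prop1df/df in 5 of 28 alternatives, among them without Pit1+/+ pool 1 (0.76, adjusted p = 0.0262) and without Pit1+/+ pool 4 (0.73, adjusted p = 0.0434). Without Pit1+/+ pool 5, the lowest of the 15 pools, its change was 0.41 (adjusted p = 0.0621) in Prop1df/df and 0.44 (adjusted p = 0.251) in Pit1dw/dw. Cdkn1c lies in an imprinted region, and 10 genes of that region's neighbourhood were measured (among them Kcnq1, Phlda2, Cd81, Igf2 and H19). In Prop1df/df against Pit1+/+ 0 of the 10 passed, beside 10.6% of all genes, with a median of 0.06 (-0.41 to 0.69). In Pit1dw/dw against Pit1+/+ 0 passed, beside 0.77%, with a median of 0.05 (-0.24 to 0.43). In Prop1df/df against Pit1dw/dw 0 passed, beside 6.26%, with a median of 0.01 (-0.24 to 0.26).

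Cdkn1b (p27) varied least. At 1434045_at its pools spanned 9.81 to 9.93 in Prop1df/df, 9.76 to 9.93 in Pit1dw/dw and 9.75 to 10.14 in Pit1+/+, with a spread within groups (SD 0.120) below that of all but 4.06% of genes. Its change was -0.11 (95% interval -0.32 to 0.09, limma adjusted p = 0.510) in Prop1df/df and -0.13 (95% interval -0.34 to 0.07, limma adjusted p = 0.803) in Pit1dw/dw against Pit1+/+. The second probe set, 1419497_at, spread widely within groups. It had 7.53, 7.55, 6.82, 7.82 and 6.37 in Prop1df/df pools and 5.88, 7.66, 6.90, 7.37 and 8.38 in Pit1dw/dw pools, against 6.67, 7.45, 6.31, 6.43 and 7.12 in Pit1+/+ pools. Its groups overlapped throughout and its 95% intervals reached from -0.41 to 1.25 in Prop1df/df and from -0.39 to 1.27 in Pit1dw/dw.

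Cdkn2c (p18) was dim in each genotype at its single probe set. Prop1df/df pools had 3.77, 3.72, 3.73, 3.58 and 4.04, Pit1dw/dw pools 4.10, 3.85, 3.98, 4.00 and 3.91, and Pit1+/+ pools 4.02, 3.87, 4.19, 4.08 and 3.85. Prop1df/df pools 1 to 4 were the lowest of the 15, and pool 5 lay among the others. The change was -0.24 (SE 0.10, limma adjusted p = 0.172) in Prop1df/df and -0.04 (SE 0.10, limma adjusted p = 0.979) in Pit1dw/dw against Pit1+/+. All 15 pools lay below the median of all values, 4.37, and signals this dim limit what can be seen.

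Cdkn1a (p21) was the most variable of the 10 genes, and its pools differed within each genotype. At 1424638_at it had 6.08, 6.64, 7.61, 7.24 and 6.07 in Prop1df/df pools and 6.58, 7.54, 7.79, 6.52 and 6.65 in Pit1dw/dw pools, against 6.67, 6.27, 8.15, 7.01 and 5.82 in Pit1+/+ pools. Its SD within groups, 0.733, was above that of 97.4% of genes. The changes were -0.06 (95% interval -0.94 to 0.82, limma adjusted p = 0.950) in Prop1df/df and 0.23 (95% interval -0.65 to 1.11, limma adjusted p = 0.959) in Pit1dw/dw against Pit1+/+.

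The 5 pools with Prph above 7 held the 5 highest values of Cdkn1a, 7.24 to 8.15 with a median of 7.61, against 5.82 to 7.01 with a median of 6.55 in the other 10. No other of the 10 genes separated these pools in that way. The second, dimmer probe set, 1421679_a_at, was highest in Prop1df/df pools 3 and 4 (5.16 and 4.92) and Pit1+/+ pool 3 (4.82), but not in Pit1dw/dw pools 2 and 3 (4.49 and 4.35), which lay beside Pit1dw/dw pool 5 (4.47). Of 13 listed genes of ganglion neurons and Schwann cells 10 were measured, and their mean, relative to all pools, was -1.58 to 2.61 in Prop1df/df, -1.17 to 2.33 in Pit1dw/dw and -1.88 to 2.91 in Pit1+/+. None of the 10 passed in any comparison, but their median change against Pit1+/+ was 0.77 in Prop1df/df and 0.85 in Pit1dw/dw. Over all genes these medians were -0.04 and -0.02, and 10.6% and 0.77% of all genes passed. In Prop1df/df against Pit1dw/dw the median of the 10 was 0.17, and 6.26% of all genes passed. Without the 5 pools the change of Cdkn1a was -0.18 (adjusted p = 0.707) in Prop1df/df and 0.14 (adjusted p = 0.975) in Pit1dw/dw against Pit1+/+. The part of ganglion RNA in the Cdkn1a signal was not tested.

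**Figure D4:**
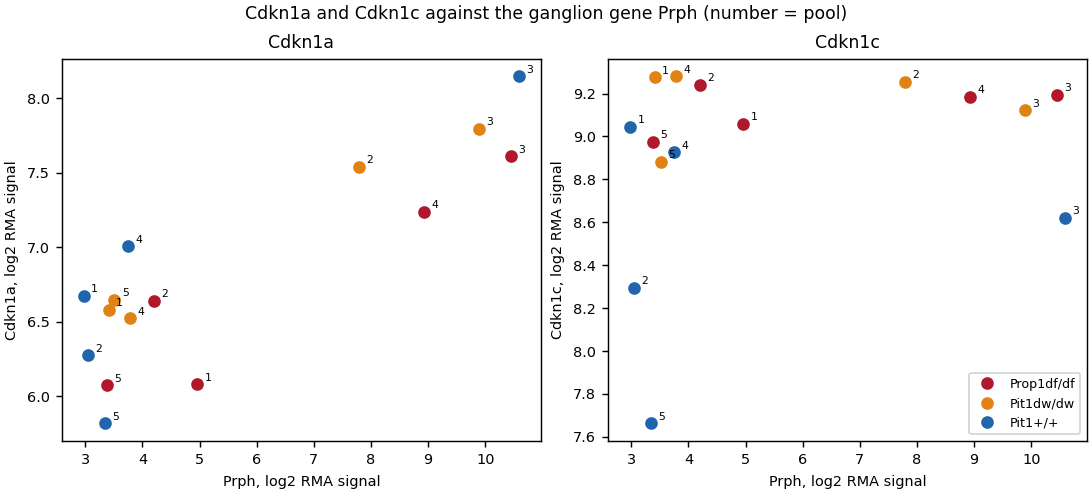
Cdkn1a (one panel) and Cdkn1c (the other) against Prph in the 15 pools, all as log2 RMA signal, coloured by genotype and numbered by pool. The 5 pools with Prph above 7, from all 3 genotypes, hold the 5 highest Cdkn1a values (7.24 and above), while for Cdkn1c they lie at 8.62 to 9.25, among the other 10.

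No D cyclin passed in any comparison. Ccnd1, the cyclin that mitogens induce most directly, had 8.62, 9.15, 9.43, 9.81 and 9.33 at 1448698_at in Prop1df/df pools and 9.38, 9.65, 9.17, 9.33 and 9.47 in Pit1dw/dw pools, against 9.49, 9.53, 9.39, 9.35 and 8.64 in Pit1+/+ pools. Prop1df/df pool 1 and Pit1+/+ pool 5 lay low, and the groups overlapped. The change was -0.01 (95% interval -0.44 to 0.42, limma adjusted p = 0.984) in Prop1df/df and 0.12 (95% interval -0.31 to 0.55, limma adjusted p = 0.953) in Pit1dw/dw against Pit1+/+.

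Ccnd2 was read by 7 probe sets, all above the median of the arrays. At 1434745_at its signal was 9.82 to 10.56 in Prop1df/df, 9.82 to 11.00 in Pit1dw/dw and 9.86 to 10.40 in Pit1+/+. Over the 7 probe sets the change ran from -0.33 to 0.04 in Prop1df/df and from -0.22 to 0.15 in Pit1dw/dw against Pit1+/+, with adjusted p of 0.287 or more. Pit1dw/dw pool 5 had the highest Ccnd2 of all pools at 1434745_at (11.00) and 1430127_a_at (8.68), but not at the other 5 probe sets. Ccnd3, a D cyclin of differentiating tissues, had 6.72 to 7.66 in Prop1df/df, 6.93 to 7.71 in Pit1dw/dw and 6.22 to 7.66 in Pit1+/+ at 1415907_at. Its change was 0.04 (95% interval -0.50 to 0.58, limma adjusted p = 0.941) in Prop1df/df and 0.23 (95% interval -0.31 to 0.77, limma adjusted p = 0.906) in Pit1dw/dw.

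Pit1+/+ pool 5 stood at the edge for several of the genes. It was the lowest of the 15 pools for Ccnd3 (6.22), Cdkn1a (5.82) and Cdkn1c (7.66), and the highest for Cdkn1b (10.14) and Rbl1 (7.19). With it left out, 3258 genes in place of 1920 passed in Prop1df/df against Pit1+/+, and 0 of the 10 were among them. The changes of Ccnd3 were then -0.20 (adjusted p = 0.548) in Prop1df/df and -0.01 (adjusted p = 0.995) in Pit1dw/dw, with the sign turned in both.

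Around these genes, 11 pathway lists, chosen with results of these data known, were counted beside the 10.6% of all genes that passed in Prop1df/df against Pit1+/+, 0.77% in Pit1dw/dw against Pit1+/+ and 6.26% in Prop1df/df against Pit1dw/dw. In Pit1dw/dw against Pit1+/+ 0 genes of the 11 lists passed. Of 22 measured S phase genes that E2F drives, 3 (13.6%) fell, 0 rose and 19 did not pass in Prop1df/df against Pit1+/+, a share near that of all genes, with a median of -0.38 beside -0.04 over all genes. In Prop1df/df against Pit1dw/dw 0 of the 22 passed, with a median of -0.07. In Pit1dw/dw the median of these 22 genes was -0.26, with values from -0.51 to -0.15, beside -0.02 over all genes. Ccna2, the S phase cyclin, had 7.97, 7.96, 8.82, 8.45 and 7.43 in Prop1df/df pools, against 8.87, 9.15, 8.81, 8.90 and 8.71 in Pit1+/+ pools. Its change was -0.76 (SE 0.20, limma adjusted p = 0.0222), and Prop1df/df pool 3, which also had high Prph, overlapped wild type. The call of Ccna2 ended without Prop1df/df pool 1 or 2 or without Pit1+/+ pool 2 (adjusted p of up to 0.0697). The second probe set of Ccna2, 1417911_at, changed by -0.83 without overlap (limma adjusted p = 0.00467 over all probe sets). In Pit1dw/dw against Pit1+/+ both probe sets were lower without overlap, by -0.50 and -0.48. Neither passed there (limma adjusted p = 0.569 and 0.438 over all probe sets). Ung, which removes uracil from DNA, changed by -0.62 (SE 0.15, limma adjusted p = 0.0122), a call that 2 of 27 alternatives ended (adjusted p of up to 0.0866), and Gins2, a subunit of the replicative helicase, by -0.50 (SE 0.15, limma adjusted p = 0.0457). Leaving out any 1 of 9 pools ended the call of Gins2: Prop1df/df pools 1, 2, 4 and 5, Pit1dw/dw pools 1 and 4, and Pit1+/+ pools 1, 2 and 3 (adjusted p over all alternatives of up to 0.170). The second probe set of Gins2, 1428713_s_at, changed by -0.62 in Prop1df/df against Pit1+/+ without overlap (limma adjusted p = 0.0143 over all probe sets).

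Of 15 mitosis genes, 3 (20%) fell, 0 rose and 12 did not pass in Prop1df/df against Pit1+/+ (median -0.48), where 10.6% of all genes passed. In Pit1dw/dw against Pit1+/+ 0 of the 15 passed, but the median was -0.29, with values from -0.70 to -0.24, beside -0.02 over all genes. In Prop1df/df against Pit1dw/dw 0 of the 15 passed, with a median of -0.10. The 3 were Bub1b, a spindle checkpoint kinase (-0.57, SE 0.17), Mki67, the antigen of cycling cells (-0.48, SE 0.14), and Ccnb2, a mitotic cyclin (-0.97, SE 0.30). Their limma adjusted p-values were 0.0363, 0.0421 and 0.0478, and of 28 alternatives each, 10 ended the call of Bub1b, 14 that of Mki67 and 16 that of Ccnb2, with adjusted p of up to 0.130, 0.111 and 0.112. Among single pools left out, these were Prop1df/df pools 1, 4 and 5 and Pit1+/+ pools 2 and 4 for Bub1b. For Mki67 they were Prop1df/df pools 1, 2, 4 and 5, Pit1dw/dw pools 1, 4 and 5, and Pit1+/+ pools 1, 2 and 4. For Ccnb2 they were Prop1df/df pools 1, 2 and 5, Pit1dw/dw pools 1 to 4, and Pit1+/+ pools 1 to 4. A second probe set of Bub1b, 1416961_at, changed by -0.52 with overlap (limma adjusted p = 0.0239 over all probe sets). The dim 1447362_at of Bub1b changed by 0.18 (limma adjusted p = 0.522 over all probe sets). Pool by pool, the mean of the 15 mitosis genes relative to all pools was -0.60 to 0.27 in Prop1df/df, -0.32 to 0.08 in Pit1dw/dw and 0.05 to 0.46 in Pit1+/+. The mean of the 22 S phase genes was -0.52 to 0.31 in Prop1df/df, -0.23 to 0.13 in Pit1dw/dw and 0.06 to 0.47 in Pit1+/+. Prop1df/df pool 3 was the highest of its group in both lists.

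Markers of the cell types of the gland and its surroundings moved beside these lists. Of 10 measured pituitary hormone and factor genes, 5 (50%) fell in Prop1df/df against Pit1+/+ (Pax7, Cga, Tshb, Lhb and Pomc) and 0 rose. The median of the 10 was -0.96, and 10.6% of all genes passed. In Pit1dw/dw against Pit1+/+ 2 fell (Tshb and Gh) and 1 rose (Nr5a1), 30% of the 10 beside 0.77% of all genes. There the median was 0.06, with values from -5.40 to 1.38. The mean of the 10 relative to all pools was -1.04 to -0.23 in Prop1df/df, -0.54 to 0.07 in Pit1dw/dw and 0.39 to 1.03 in Pit1+/+. By this mean the mutants overlapped each other and not wild type. Of 8 measured markers of pituitary progenitors, 4 rose (Hesx1, Otx2, Cdh1 and Prrx1), 1 fell (Aldh1a2) and 3 did not pass in Prop1df/df against Pit1+/+. The share called was 62.5%, and in Pit1dw/dw against Pit1+/+ 0 of these 8 markers passed. Their mean relative to all pools was 0.05 to 0.45 in Prop1df/df, -0.18 to 0.06 in Pit1dw/dw and -0.32 to -0.08 in Pit1+/+. Of 8 measured markers of bone and cartilage, 2 (25%) rose (Col2a1 and Matn1) and 6 did not pass in Prop1df/df against Pit1+/+. In Pit1dw/dw against Pit1+/+ 0 of them passed. The mean of the bone and cartilage markers was -0.14 to 1.70 in Prop1df/df, -1.14 to 0.91 in Pit1dw/dw and -1.69 to 0.64 in Pit1+/+. The part of these cells in the results was not tested.

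**Figure D5:**
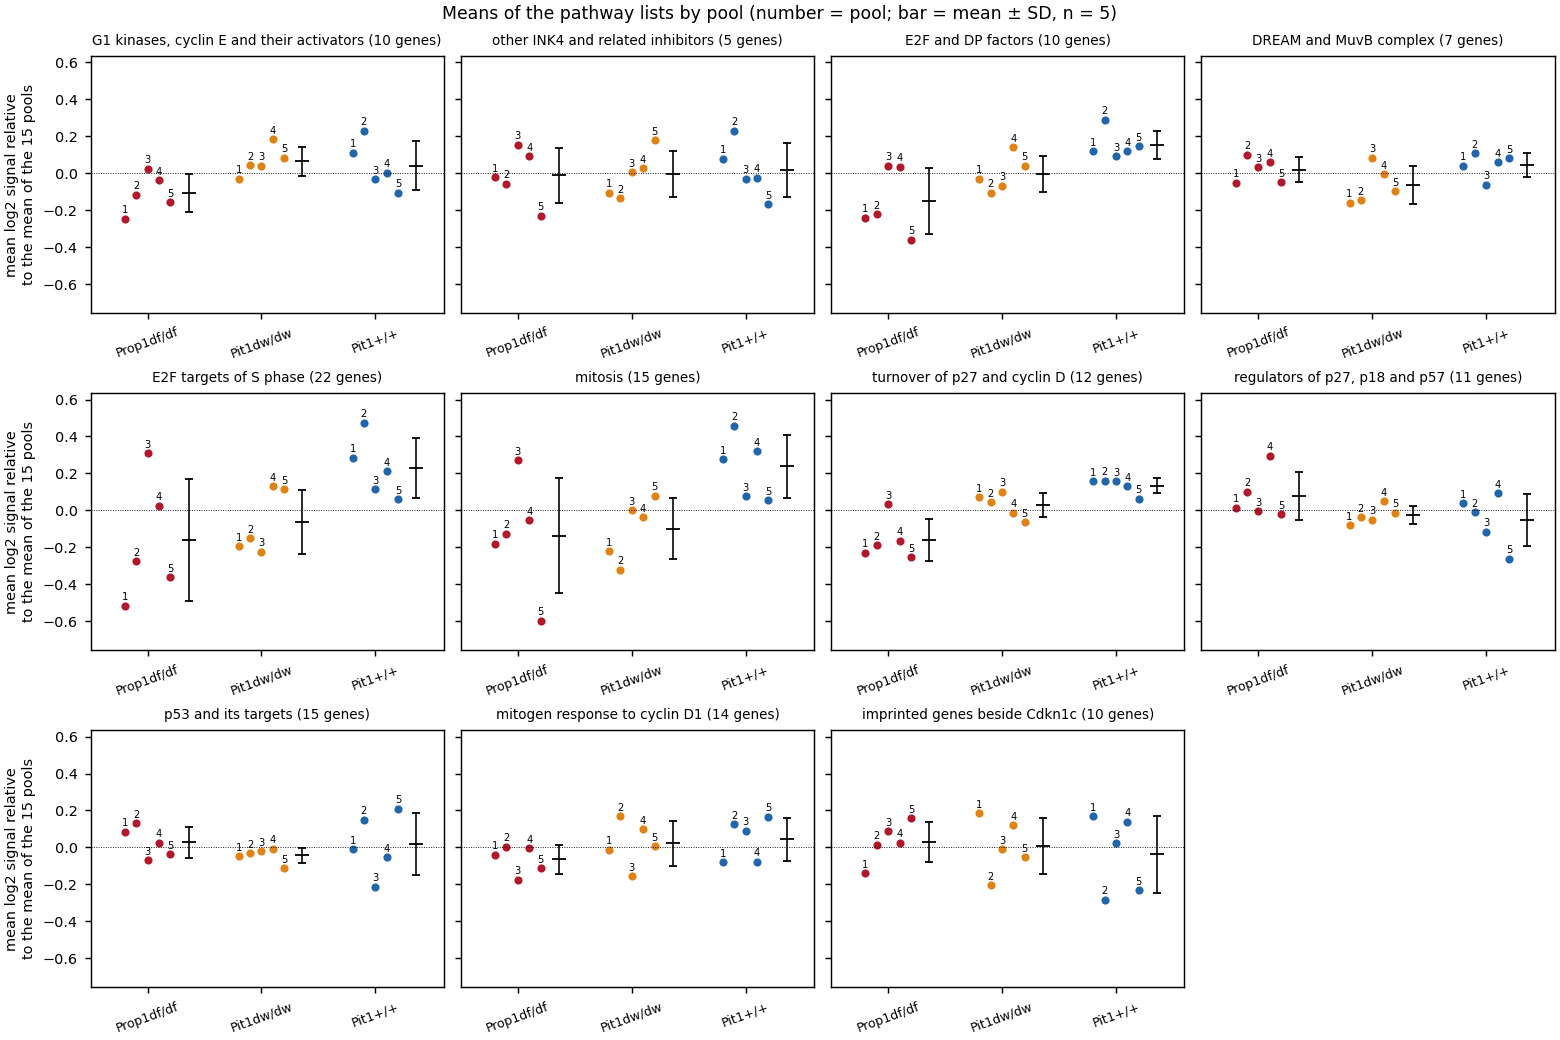
Mean log2 signal of the pathway lists in each pool, relative to the mean of all 15 pools, with Prop1df/df, Pit1dw/dw and Pit1+/+ from left to right; points are pools and bars are the mean and SD of 5 pools. For S phase and mitosis genes the Pit1+/+ pools lie at 0.06 to 0.47 and 0.05 to 0.46, and the pools of both mutants reach lower and overlap them in part.

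Among the 10 E2F and DP factors, 1 (10%), E2f8, fell in Prop1df/df against Pit1+/+, where 10.6% of all genes passed. E2f8, an atypical E2F that represses S phase genes, had 5.25, 5.01, 5.61, 5.24 and 4.57 in Prop1df/df pools, 5.91, 5.93, 5.74, 6.12 and 5.68 in Pit1dw/dw pools, and 6.20, 6.58, 6.08, 6.28 and 6.41 in Pit1+/+ pools. The Prop1df/df pools lay below all 10 others. The change was -1.17 (SE 0.16, limma adjusted p = 0.000266) against Pit1+/+ and -0.74 (SE 0.16, limma adjusted p = 0.0123) against Pit1dw/dw. The call against Pit1dw/dw ended in 2 of 28 alternatives, with the mean of all probe sets (-0.31, adjusted p = 0.0725) and with the ganglion and bone means as covariates (-0.61, adjusted p = 0.109). E2f5, a repressor that works with pocket proteins, was lower in Prop1df/df than in Pit1dw/dw by a change of -0.59 at 1460207_s_at (SE 0.14, limma adjusted p = 0.0198). Of 28 alternatives 6 ended that call, among them the mean of all probe sets and leaving out Pit1dw/dw pool 4 (adjusted p of up to 0.238). Its dimmer probe sets 1417444_at and 1447625_at changed by -0.34 and -0.07 there, with overlap (limma adjusted p = 0.252 and 0.752 over all probe sets). The other 8 factors did not pass in any comparison. Nor did any of the 10 kinases, cyclins E and activators of G1, or of the 7 subunits and partners of the DREAM complex, through which Rbl1 and Rbl2 hold down cell cycle genes.

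Of 12 genes for the turnover of p27 and cyclin D, 2 (16.7%) fell and 0 rose in Prop1df/df against Pit1+/+, beside 10.6% of all genes, and the median was -0.11 beside -0.04 over all genes. Fbxo31, an F-box protein that targets cyclin D1 for breakdown, had 4.69, 4.18, 4.91, 4.52 and 4.10 in Prop1df/df pools, 5.92, 5.99, 6.65, 6.19 and 5.74 in Pit1dw/dw pools, and 6.50, 6.39, 6.88, 6.44 and 5.30 in Pit1+/+ pools. Its change was -1.82 (SE 0.26, limma adjusted p = 0.000267) against Pit1+/+ and -1.62 (SE 0.26, limma adjusted p = 0.000879) against Pit1dw/dw, with no overlap. The second probe set of Fbxo31, 1417969_at, changed by 0.08 against Pit1+/+ (limma adjusted p = 0.796 over all probe sets). Fbxo4, another F-box protein linked to cyclin D1, changed by -0.88 against Pit1+/+ (SE 0.26, limma adjusted p = 0.0420), a call that 17 of 28 alternatives ended (adjusted p of up to 0.185). Among them were Prop1df/df pools 2 to 5, Pit1dw/dw pools 1, 2, 3 and 5, and Pit1+/+ pools 2 and 4, each left out alone. Of 5 other inhibitors, Ccndbp1, which binds D cyclins, changed by 0.45 (SE 0.14, limma adjusted p = 0.0463), and 16 of 27 alternatives ended that call (adjusted p of up to 0.356). Among them were Prop1df/df pools 1, 2 and 5, Pit1dw/dw pools 2, 3 and 5, and Pit1+/+ pools 1 to 4, each left out alone. Cdkn2a, Cdkn2b, Cdkn2d and Cdkn3 did not pass.

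Of 11 measured regulators of p27, p18 and p57, 1 (9.09%), Hey1, rose and 0 fell in Prop1df/df against Pit1+/+, beside 10.6% of all genes. Against Pit1dw/dw it was also 1 (9.09%), beside 6.26% of all genes. A link of Hey1 to the inhibitors was not tested. Hey1, a Notch target and transcriptional repressor, had 10.07, 10.06, 9.10, 10.41 and 10.23 in Prop1df/df pools, 8.85, 9.04, 8.57, 8.62 and 8.51 in Pit1dw/dw pools, and 8.35, 8.71, 8.17, 8.58 and 8.54 in Pit1+/+ pools. All Prop1df/df pools lay above the other 10. Its change was 1.50 (SE 0.20, limma adjusted p = 0.000195) against Pit1+/+ and 1.25 (SE 0.20, limma adjusted p = 0.00108) against Pit1dw/dw. The other 10 measured regulators of p27, p18 and p57, among them Men1 and Kmt2a of the menin complex and the FoxO factors, did not pass. Of 15 measured genes of the p53 pathway, of which Cdkn1a is a target, 1 (6.67%, below the 10.6% of all genes) fell and 0 rose: Ccng1, with -0.52 (SE 0.10, limma adjusted p = 0.00340).

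Of 14 genes of the mitogen response that acts on Ccnd1, 1 rose and 2 fell (21.4% in all, beside 10.6% of all genes) in Prop1df/df against Pit1+/+, while Ccnd1 itself did not pass. Axin2, a feedback target of Wnt signalling, had 5.29, 5.64, 5.25, 6.04 and 4.71 in Prop1df/df pools, 6.73, 7.56, 6.97, 7.38 and 7.57 in Pit1dw/dw pools, and 7.16, 7.28, 6.68, 6.75 and 7.0 in Pit1+/+ pools, with no overlap between Prop1df/df and the rest. Its change was -1.59 (SE 0.23, limma adjusted p = 0.000304) against Pit1+/+ and -1.85 (SE 0.23, limma adjusted p = 0.000106) against Pit1dw/dw. Jun, an AP-1 subunit, changed by 0.62 (SE 0.10, limma adjusted p = 0.00115) against Pit1+/+ and by 0.42 (SE 0.10, limma adjusted p = 0.0207) against Pit1dw/dw. Mycn, a Myc family factor of progenitors that is known to drive Ccnd1 and Ccnd2, had 5.79, 5.98, 5.87, 5.87 and 5.13 in Prop1df/df pools, against 6.23, 7.08, 6.64, 6.01 and 6.70 in Pit1+/+ pools, and its change was -0.80 (SE 0.21, limma adjusted p = 0.0203). A dimmer probe set of Mycn, 1425922_a_at, changed by 0.27 (limma adjusted p = 0.523 over all probe sets). The mean of all Mycn probe sets changed by -0.20 (limma adjusted p = 0.210 over all genes). Of 28 alternatives, 8 ended the call of Mycn (adjusted p of up to 0.210), among them leaving out Prop1df/df pool 5 or Pit1+/+ pool 2. For Jun against Pit1dw/dw 10 did (adjusted p of up to 0.209), among them leaving out Prop1df/df pool 1 or 5 or Pit1dw/dw pool 1 or 3. The calls of Axin2, Hey1, Fbxo31, Ccng1, E2f8 against Pit1+/+ and Jun against Pit1+/+ passed in all 28.

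The promoter of Mycn is shown because it holds 3 matches to the E2F letters. The window of 40 bases (GRCm38.p6, chr12:12941996-12942035, minus strand) starts 199 bases before its RefSeq start, and capitals mark matches to TTTGGCGC or TTTCGCGC on either strand, the first 2 of which overlap.
Mycn: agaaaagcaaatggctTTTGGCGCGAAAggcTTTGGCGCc
Of all 32851 windows of 250 upstream bases, 6 (0.0183%) held at least 2 matches.

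Without the 3 Prop1df/df pools with Gh above 13, 890 genes passed in Prop1df/df against Pit1+/+ and 503 against Pit1dw/dw. The calls of Ung, Gins2, Ccnb2, Ccndbp1, Fbxo4 and Mycn against Pit1+/+, and those of E2f5 and Jun against Pit1dw/dw, ended with that setting, and those of Ccna2, Bub1b, Mki67, E2f8, Fbxo31, Hey1, Ccng1, Axin2 and Jun against Pit1+/+ did not.

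Genes whose pattern over the 15 pools lay nearest to each of the 10 were found by Pearson's r as a description, over pools that share arrays and tissue sources. Ccnd3 had the closest partners, Ddah2 (0.95) and Gstp1 (0.95), and Cdkn1a had Trarg1 (0.93) and Nptx2 (0.92). Those of Cdkn1c, Itih2 (0.90) and Pttg1ip (0.90), rested on few pools, since r was 0.55 and 0.40 without the 2 pools farthest from the median. Rbl1 at 1425166_at had Pspc1 (0.90) and Zfp398 (0.87), with r of 0.58 and 0.63 without 2 such pools.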

How the data were processed

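Pooled pituitary RNA came from an Ambion RNAqueous Micro kit and was labelled with biotin as cRNA, per the labels. The deposited values are log2 signals that the authors made with RMA, per the submitters' processing notes, a method that corrects background, normalises by quantiles and summarises probes; no version or setting is given there. Values ran from 1.83 to 14.83, and correlations between arrays from 0.941 to 0.992. The members and gene lists were chosen with earlier results of these data known.

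Samples were grouped by title into 3 groups of 5 pools. Of 45101 probe sets, 45037 remained without 64 controls, of which 34945 name 1 gene, 932 several and 9160 none in the annotation given; 34741 were matched to gene records by ID and 0 symbols changed. The probe set with the highest mean stood for each of 18193 genes, and no filter on dim probe sets was used. The 3 group means were fitted with limma 3.58.1 (lmFit, eBayes, two-sided) in R 4.3.3 to all 15 arrays, once for genes and once for all 45037 probe sets, with Benjamini-Hochberg adjustment and a threshold of 0.05. The procedure was tested on simulated data. The text names all 10 members, up to 3 genes per pathway list with the smallest adjusted p past the threshold, and the 2 genes nearest to each member by Pearson's r. Alternatives were 13 other settings and each of 15 pools left out in turn; leaving out Prop1df/df pools with Gh above 13 was chosen after seeing the data. Replicate numbers in the titles were not taken to pair samples. Of 15 correlations of same-numbered pools 8 were over 0.1 (-0.31 to 0.67), and the own number was the best partner in 6. Pools numbered 3 were best partners in each comparison (0.67, 0.64 and 0.51). Whether the numbers mark a shared source was not tested. Promoter sequences are RefSeq's, on GRCm38.p6.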

Additional observations from a re-analysis of the deposited data

Results flagged for a closer look

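A search of 129 groups of 5 pools found 5 (3.88%) with a pool far from the others, while chance gives about 1 in 20. In Pit1+/+ pool 5 Ccnd1 at 1448698_at was 8.64, against 9.35 in the next pool of the group, and in Pit1+/+ pool 3 the dim Rbl1 probe set 1454293_at was 2.83, against 2.68. In Prop1df/df pool 5 Ccnb2 was 4.87, against 6.11 in the next pool, and Mycn was 5.13, against 5.79. In Prop1df/df pool 3 Hey1 was 9.10, against 10.06.

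Changes against wild type differed between the mutants, by the limma test of Prop1df/df minus Pit1dw/dw, for 6 of the named genes. The difference was -0.74 for E2f8 (adjusted p = 0.0123), -0.59 for E2f5 (adjusted p = 0.0198), -1.62 for Fbxo31 (adjusted p = 0.000879), 1.25 for Hey1 (adjusted p = 0.00108), -1.85 for Axin2 (adjusted p = 0.000106) and 0.42 for Jun (adjusted p = 0.0207). The call of E2f8 ended in 2 of 28 alternatives (adjusted p of up to 0.109). That of E2f5 ended in 6 (up to 0.238) and that of Jun in 10 (up to 0.209). Those of Fbxo31, Hey1 and Axin2 passed in all 28. In each of the 6 the Prop1df/df and Pit1dw/dw pools did not overlap, as in 8.5% of all genes. The 6 were picked by this same test, so the lack of overlap adds no support. None of the 10 cyclins, inhibitors and pocket proteins differed between the mutants by that test. At an unadjusted p under 0.05 it was also 0 of 10 genes, beside 20.1% of all genes.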

How the results depend on the processing

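Of the members, 0 passed in Pit1dw/dw against Pit1+/+ and in Prop1df/df against Pit1dw/dw under every setting run. In Prop1df/df against Pit1+/+ the 0 became 1 with the mean of all probe sets, without dim probe sets or with median centring (Rbl1), 1 with a second quantile normalization, an intensity trend or the replicate block (Cdkn1c), and 2 with array weights (Cdkn2c and Rbl1). With a pool left out it was 0 to 1 (Cdkn1c without Pit1+/+ pool 1 or 4, Rbl1 without pool 3). The 1 member probe set past the threshold there became 2 with median centring or the replicate block and 5 with array weights, and was 1 to 2 with a pool left out (2 without Pit1+/+ pool 1 or 3). In Pit1dw/dw against Pit1+/+ the 1 member probe set became 0 with median centring, a second quantile normalization, an intensity trend, only the 2 groups compared, the replicate block, without the pools with Prph above 7, without Prop1df/df pools with Gh above 13, and with Xist or the ganglion and bone means as covariates, and it was 0 to 1 with a pool left out. The check made did not settle whether the replicate number pairs samples, and its block is 1 of the 13 other settings. Of all genes, 1920 passed in Prop1df/df against Pit1+/+, but 4297 with array weights, 3258 without Pit1+/+ pool 5 and 890 without the Gh-high pools. In Prop1df/df against Pit1dw/dw 1139 passed, but 2390 with array weights, 746 without the pools with Prph above 7 and 503 without the Gh-high pools. In Pit1dw/dw against Pit1+/+ 140 passed, but 571 with array weights, 51 without the pools with Prph above 7, and 83 to 161 with a pool left out. No called change of a member or named gene turned its sign. The causes were not tested. Dim probe sets, such as that of Cdkn2c, limit what can be seen.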
